A study of Mus musculus with 4 samples.

Results

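The liver was compared between the start of a high-fat, high-sucrose (HFHS) diet and 5 weeks of that diet, an interval that in mice spans puberty. The comparison rests on 2 of the 4 arrays of the series, 1 labelled 0 weeks and 1 labelled 5 weeks, and no value was used to choose them. Both hold liver RNA of male C57BL/6 mice, a common inbred laboratory strain, which started HFHS at 5 weeks of age. The 0-week group was thus sampled at the age of 5 weeks, before any HFHS feeding, and the 5-week group at the age of 10 weeks. The series text gives 4 mice per time point, and whether an array holds RNA of 1 mouse or of a pool is not stated. Of 34742 genes with a probe on the array, 17092 were measured in both livers, meaning well above background at both times. Above background or seen at 0 weeks only, or at 5 weeks only, refers to these 2 arrays, whatever the later arrays show. The 10-week and 15-week arrays served here to choose the probe of each gene and to show where a level went later. With 1 array per time point no difference has a replicate check, and none was tested. Age and time on HFHS changed together, so growth and diet cannot be told apart for any gene, and the sorting of genes into growth or diet lists below comes from general knowledge of their roles.

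As background, the growth hormone pattern of the pituitary becomes sexually distinct at puberty. In males it comes in pulses, which switch the transcription factor STAT5 on and off in hepatocytes, raise a set of male-biased genes and shut down a set of female-biased ones that juvenile males still express. A diet rich in fat and sucrose acts on other regulators, among them the sterol sensor SREBP2, the fat and sugar sensors SREBP1 and ChREBP, the fatty acid receptors PPAR-alpha and PPAR-gamma, and liver macrophages. The xenobiotic receptors CAR and PXR, which control drug-metabolising cytochromes, answer to both age and diet.

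Levels below are log2 of the background-subtracted signal over the 75th percentile of its array, so 0 is the 75th percentile, and folds are taken from differences of these levels. The median gene differed by −0.02 (log2, 5 minus 0 weeks), and 16432 genes lay within 2-fold. At 5 weeks 394 genes were at least 2-fold higher (2.31% of those measured) and 266 at least 2-fold lower (1.56%). The counts of each list below are to be read beside these 2 shares. The tissue label was checked against 17 hepatocyte markers, all of which were measured in both livers, with differences between −0.49 and 0.37. Albumin (Alb), the main plasma protein, stood at 11.60 at 0 weeks and 11.11 at 5 weeks. A few areas of the arrays were locally bright: for 35 higher and 12 lower genes, at least 8 of the 44 spots around the probe were more than 2-fold above the same spots on the other arrays, and such genes are marked where they are named.

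**Figure D1:**
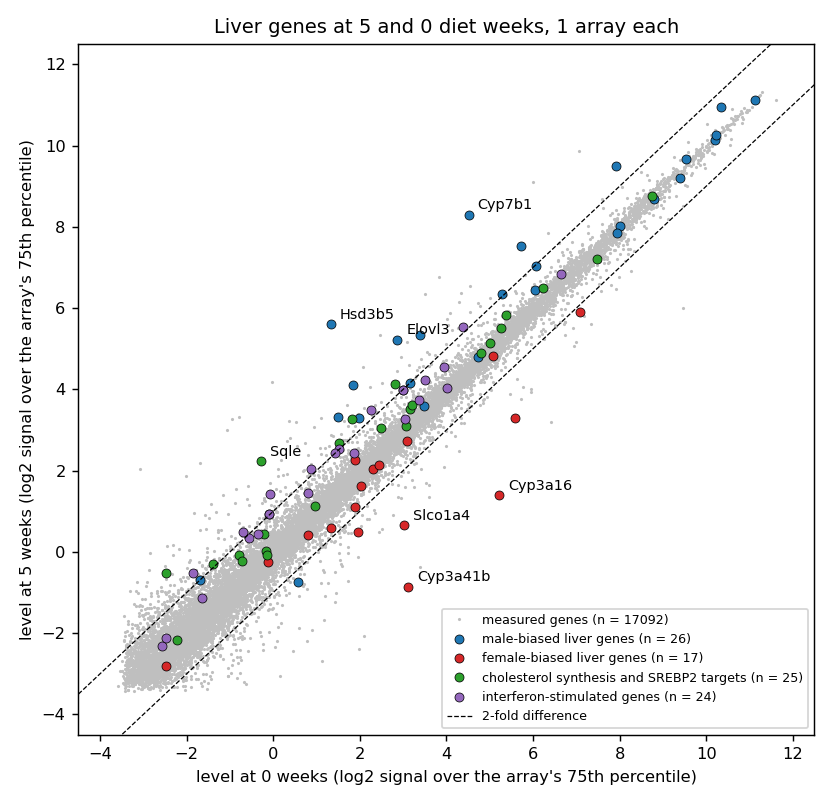
Level of each of the 17092 measured genes at 5 weeks (vertical axis) against 0 weeks (horizontal axis), both as log2 signal over the array's 75th percentile, 1 array each; dashed lines mark a 2-fold difference. The male-biased genes Hsd3b5, Cyp7b1 and Elovl3 lie above the band, at 19.3-fold, 13.8-fold and 5.13-fold higher, and the female-biased genes Cyp3a41b, Cyp3a16 and Slco1a4 below it, at 15.6-fold, 14.3-fold and 5.15-fold lower.

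Genes that adult male livers express more than female livers were higher at 5 weeks. At the 2-fold line 11 of the 26 measured were higher, against 2.31% of all measured genes, and 1 was lower. Their median difference was 0.79. Hsd3b5, a hydroxysteroid dehydrogenase of the adult male liver, stood at 1.33 at 0 weeks and 5.60 at 5 weeks, 19.3-fold higher. Cyp7b1, which hydroxylates oxysterols, went from 4.51 to 8.30. Both gave a clear signal at 0 weeks already. Moxd1, a monooxygenase related to dopamine beta-hydroxylase, differed in this: it was not well above background at 0 weeks (−5.55) and stood at 4.12 at 5 weeks, at least 209-fold higher. Moxd1 was singled out after its values were seen, and it was the 1 male-biased gene above background at 5 weeks only. Among all 793 genes above background at 5 weeks only, 30.1% had a bound of at least 2-fold.

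The other higher male-biased genes covered lipid metabolism, complement, conjugation and pheromone transport. Elovl3, an elongase of very long fatty acids, stood at 2.86 and then 5.22, 5.13-fold higher. Susd4, a complement regulator, was 4.79-fold higher (1.84 and 4.10), and C6, a component of the membrane attack complex, 3.90-fold higher (3.38 and 5.35). Both complement genes were low to moderate at the start and had similar increments. The sulfotransferase Sult5a1 was 3.53-fold higher, at 3.32 at 5 weeks, and Nudt7, a peroxisomal coenzyme A diphosphatase, 3.48-fold higher (5.73 and 7.53) with both of its probes alike (1.80 and 1.81). Mup21, of the pheromone-carrying major urinary proteins, was 3.03-fold higher (7.91 and 9.51). The remaining 3 higher members lay nearer to the 2-fold line: Fitm1, which promotes lipid droplet formation, at 2.49-fold, Cyp4a12a, a fatty acid hydroxylase, at 2.08-fold, and the proteoglycan Cspg5 at 2.01-fold.

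Not every male-biased gene differed 2-fold. Cyp2d9, a steroid hydroxylase, stood at 8.01 on both arrays. Mup20, the pheromone darcin, differed by 0.60 (10.35 and 10.95), and the anion transporter Slco1a1 by 0.99 (3.17 and 4.16), just inside 2-fold. Cyp2d9 and Mup20 were thus near their 5-week level at 0 weeks, and Slco1a1 lay on the edge of the threshold. Ihh, a hedgehog ligand, was the 1 lower member, at 0.56 and then −0.75. Members of the Mup and Hsd3b families are near-identical and their probes can share signal. The neighbouring Hsd3b3 differed by 0.55 and the 3 probes of Hsd3b2 by −0.06 to 0.82, where Hsd3b5 differed by 4.27.

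**Figure D2:**
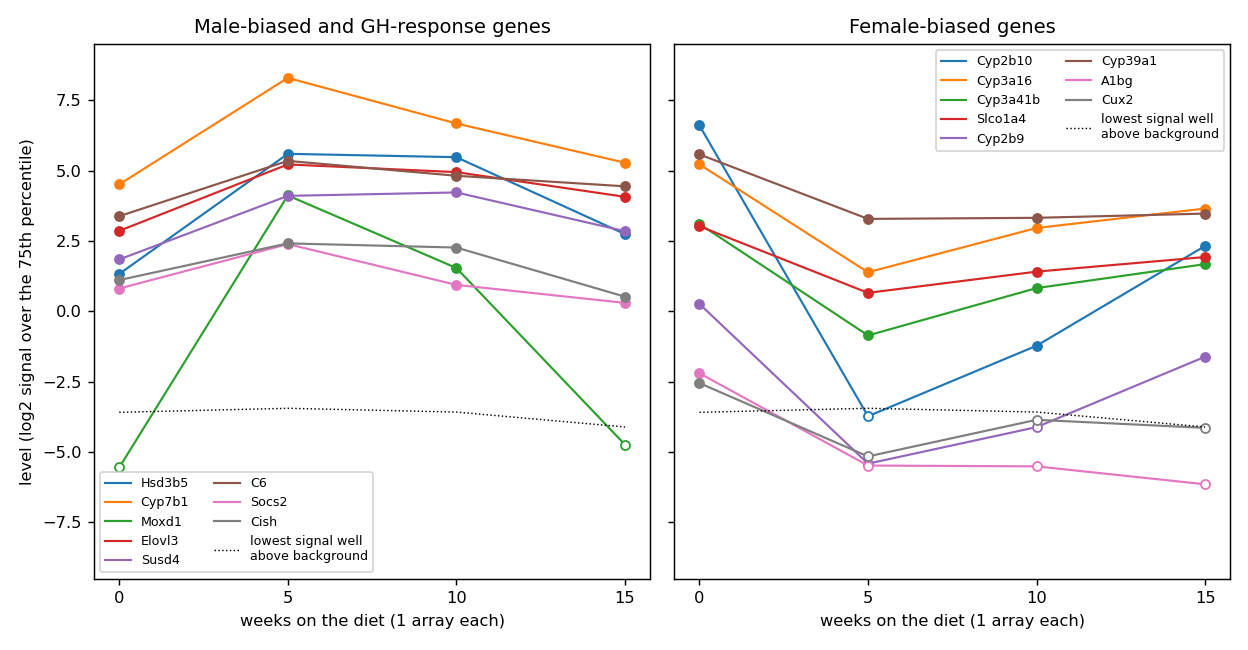
Level (log2 signal over the array's 75th percentile) of 8 male-biased or growth hormone response genes (left) and 8 female-biased genes (right) on the arrays at 0, 5, 10 and 15 weeks, 1 array each; open points are not well above background and the dotted line is the lowest signal that was. Moxd1 appears at 5 weeks at 4.12 and is not well above background at 15 weeks, while Cyp2b10 stands at 6.61, −3.73, −1.22 and 2.33.

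Genes that adult female livers express more were lower. Of 17 measured female-biased genes 6 were at least 2-fold lower, against 1.56% of all measured genes, and none was 2-fold higher; the highest difference among the 17 was 0.37. A further 8 were above background at 0 weeks only, 4 of them with a bound of at least 2-fold, where 20.4% of all 972 such genes had one. Cyp2b10, a cytochrome of the CAR pathway, stood at 6.61 at 0 weeks and was not well above background at 5 weeks (−3.73), at least 1060-fold lower. It was the largest bound among genes seen at 0 weeks only. Cyp2b9, a steroid-hydroxylating cytochrome, was at least 13.1-fold lower (0.27 and −5.41), and A1bg, a plasma glycoprotein, at least 2.37-fold lower (−2.20 and −5.48). A1bg was named after its values were seen.

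Among members measured on both arrays, Cyp3a41b was 15.6-fold lower (3.11 and −0.85), and Cyp3a16 14.3-fold lower (5.22 and 1.39). Slco1a4, an organic anion transporter, was 5.15-fold lower, at 3.02 and then 0.66. Cyp39a1, an oxysterol hydroxylase, was 4.90-fold lower (5.58 and 3.29). Prom1, the membrane protein prominin, was 2.78-fold lower and also belongs to the bile duct markers given below. Cyp2a4, a steroid hydroxylase whose probe also names Cyp2a5, was 2.26-fold lower (7.08 and 5.90) and still among the brighter genes at 5 weeks. Of 4 members with no level on either array, Cyp3a44 and the sulfotransferases Sult2a1, Sult2a2 and Sult3a1, nothing can be said at this signal. The estrogen sulfotransferase Sult1e1 stood within 2-fold (0.81 and 0.42).

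The growth hormone pathway itself was mostly level, apart from the feedback genes that STAT5 switches on. Of 21 measured genes of the growth hormone and IGF axis 3 were at least 2-fold higher and none lower. Socs2, a feedback inhibitor of growth hormone signalling, stood at 0.81 and then 2.39, 2.99-fold higher, and its 3 probes gave log2 differences between 1.51 and 1.85. Cish, another such inhibitor, stood at 1.11 and 2.42, 2.47-fold higher. The epidermal growth factor receptor Egfr was 2.39-fold higher (5.00 and 6.25) with the probe used, while its 3 probes spread from 0.35 to 1.26. Igf1, the main growth factor the liver secretes under growth hormone, was at 7.20 and 7.33. Its carrier Igfals (3.64 and 3.90) and the growth hormone receptor Ghr (6.72 and 6.63) were also within 2-fold. Of the repressors of this system, male-biased Bcl6 stood at 3.22 and 2.77, and female-biased Cux2 was above background at 0 weeks only (−2.55 and −5.15), at least 1.86-fold lower.

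The promoters of these genes were searched for the STAT5 motif TTCNNNGAA, which is its own reverse complement, in the 250 bases before to 50 bases after the start of each gene, as RefSeq gives them for GRCm38.p6. The motif stood in 9.55% of 27025 promoters, in 5 of 20 of the growth hormone and IGF axis, in 2 of 24 male-biased and in 4 of 23 female-biased genes with an entry. It is a description of letters and not of binding. The male-biased genes with it were C8a and Moxd1, and the female-biased ones Fmo2, Sult3a1, A1bg and Prlr. The stretches below were picked from genes that hold the motif, so they do not stand for their lists. Moxd1 appeared at 5 weeks, A1bg was above background at 0 weeks only, and Cish was higher at 5 weeks. Capitals mark the motif, which begins 150 bases before the start in Moxd1, 84 bases before it in A1bg, and at bases 1 and 12 of the transcript in Cish. The stretches are chr10:24223317-24223436 on the plus strand, chr15:60921271-60921390 on the minus strand and chr9:107296655-107296682 on the plus strand, all within the promoter window of the named gene. The letters of the motif are the same in Moxd1 and A1bg, which differed in opposite directions.
Moxd1: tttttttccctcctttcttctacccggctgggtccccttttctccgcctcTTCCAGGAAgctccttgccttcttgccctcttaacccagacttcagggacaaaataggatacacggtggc
A1bg: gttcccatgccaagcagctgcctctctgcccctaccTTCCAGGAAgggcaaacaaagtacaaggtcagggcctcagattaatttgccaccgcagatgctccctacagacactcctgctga
Cish: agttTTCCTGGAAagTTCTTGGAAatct

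Fetal, cell cycle, sex steroid and erythroid genes measured on both arrays were mostly within 2-fold. Of 12 measured fetal and imprinted growth genes none was 2-fold higher and 1 was lower, Spink1, a trypsin inhibitor (0.14 and −1.06). Alpha-fetoprotein (Afp), the fetal counterpart of albumin, stood at −1.41 and −0.70, and the fetal RNA H19 at −1.61 and −2.21. The fetal growth factor Igf2 was not well above background on either array. Igf2bp3, a fetal RNA-binding protein, was above background at 0 weeks only, at least 2.51-fold lower at 5 weeks (−2.11 and −5.62). Among 22 measured cell cycle genes Ccnd1, the G1 cyclin, was the 1 at least 2-fold different, 2.06-fold higher (1.71 and 2.75). A further 5 were above background at 5 weeks only, 4 of them with a bound of at least 2-fold: Racgap1, a regulator of cell division (at least 2.51-fold higher), the mitotic cyclin Ccnb1 (at least 2.40-fold), Prc1, which bundles spindle microtubules (at least 2.06-fold), and the mitotic kinase Plk1 (at least 2.02-fold). Of all 793 genes above background at 5 weeks only, 30.1% had such a bound. The proliferation marker Mki67 stood at −2.24 and −1.46. Top2a, a topoisomerase of dividing cells, was 1 of 3 above background at 0 weeks only (−1.06 and −4.82), and 15 of its 44 neighbouring spots were bright on that array. None of 13 measured sex steroid receptors and enzymes differed 2-fold. The estrogen receptor Esr1 stood at 0.69 and −0.11. Of 9 measured erythroid genes none differed 2-fold, with a median of −0.48.

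Drug-metabolising cytochromes held 3 of the 12 genes furthest below. Of 21 measured cytochromes and CAR or PXR targets 6 were at least 2-fold lower, against 1.56% of all measured genes, and none higher. A further 5 were above background at 0 weeks only, and 3 had a bound of at least 2-fold. Of all 972 genes above background at 0 weeks only, 20.4% had one. Cyp3a11, the main drug-metabolising Cyp3a enzyme of the mouse, stood at 9.47 at 0 weeks and 5.99 at 5 weeks, 11.2-fold lower. Cyp3a59 was 4.03-fold lower (5.96 and 3.95), Cyp3a25 2.35-fold lower (7.08 and 5.84) and Cyp2c39, a retinoid-hydroxylating member of another family, 2.20-fold lower (1.65 and 0.52). Cyp3a13 stood within 2-fold (5.64 and 4.78). The difference was thus spread over the Cyp3a family but uneven within it. Cyp2e1, the ethanol-oxidising cytochrome, was level at 10.78 and 10.77, and so were the receptors themselves, PXR (Nr1i2, 4.39 and 4.42) and CAR (Nr1i3, 5.17 and 4.86). Cyp2b10 and Cyp2b9, given above among the female-biased genes, belong to this group too. Cyp3a16 and Cyp3a41b are counted among the 6 lower genes of both lists. The lists are thus not independent.

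Cyp3a genes are near-identical in sequence, and the probes show how far single members can be read apart. A second probe counted under Cyp3a11 names Cyp3a41a, Cyp3a41b and Cyp3a44 as well. The scanner files place it on chromosome 5 at chr5:146672058-146673925 of build mm9, minus strand, a span of 1868 bases for 60 bases of probe. It is printed because its signal cannot be assigned to 1 gene. It went from 7.66 to 3.98, 12.9-fold lower, beside 11.2-fold for the probe that names Cyp3a11 alone. Cyp3a44, on a probe of its own, was not well above background on either array.
Cyp3a shared probe: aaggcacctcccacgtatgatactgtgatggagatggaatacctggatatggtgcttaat

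Several conjugating enzymes and periportal genes were lower as well. Of 25 measured phase II and NRF2 genes 4 were lower, against 1.56% of all measured genes, and none higher, with a median of −0.52. Gsta2, a glutathione transferase, was 3.59-fold lower (3.54 and 1.69), Gstt3, of another transferase class, 3.01-fold lower (5.47 and 3.89), the carboxylesterase Ces2a 2.56-fold lower (8.27 and 6.92) and Gstm3 2.12-fold lower (3.25 and 2.16). Nfe2l2, the transcription factor NRF2, was level (3.47 and 3.43). All 18 measured genes that mark periportal hepatocytes were lower than at 0 weeks, 4 of them at least 2-fold, with a median of −0.64. Of 18 measured pericentral genes none differed 2-fold, and their median was −0.03.

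The periportal genes at least 2-fold lower included the amino acid enzymes Sdsl and Hal. Etnppl, the phosphoethanolamine lyase, stood at 6.99 and 5.16, 3.55-fold lower. Sdsl, a serine dehydratase relative, was 3.30-fold lower (7.33 and 5.61), and Hal, the first enzyme of histidine breakdown, 2.32-fold lower (7.98 and 6.76). The fourth was the aldehyde dehydrogenase Aldh1b1, 2.08-fold lower (4.35 and 3.29). The urea cycle enzymes were lower within 2-fold, with Asl at −0.86, Arg1 at −0.55 and Cps1 at −0.43. These lists share members, and 3 of 30 amino acid and urea cycle genes were at least 2-fold lower in all.

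**Figure D3:**
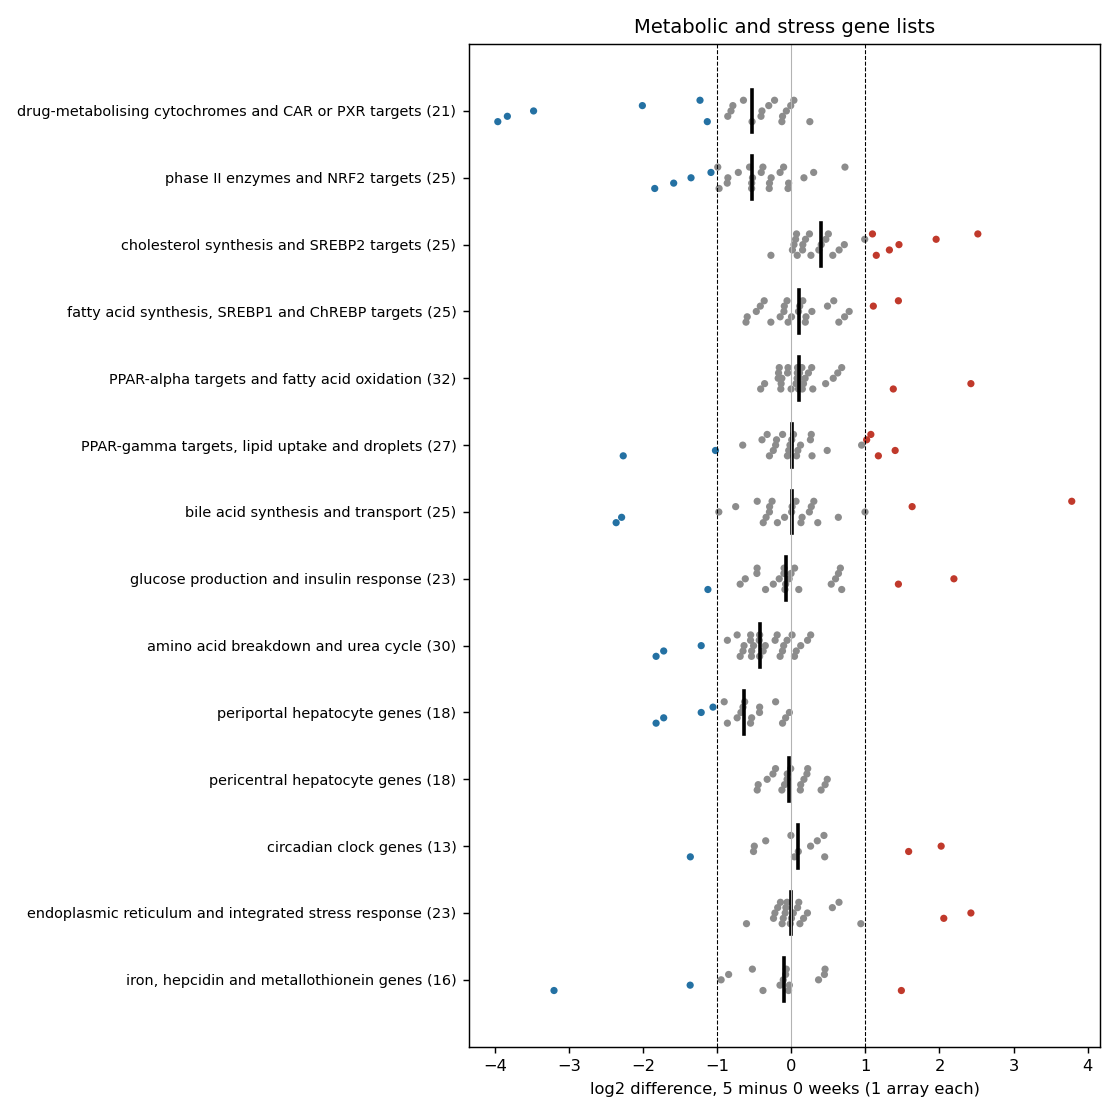
Log2 difference, 5 minus 0 weeks, of every measured member of the metabolic, stress, clock and iron lists (1 point per gene, number measured in parentheses, 1 array per time point); red points are at least 2-fold higher, blue at least 2-fold lower, and the black bar is the list median. Cytochromes, phase II enzymes and periportal genes have medians of −0.53, −0.52 and −0.64, and cholesterol synthesis one of 0.40.

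Genes of cholesterol synthesis were higher. All 25 members were measured, 6 of them at least 2-fold higher, against 2.31% of all measured genes, and none lower. Of the 25, 24 lay above 0, and the median was 0.40. Sqle, squalene epoxidase, stood at −0.29 and then 2.23, 5.73-fold higher. Cyp51, the lanosterol demethylase, was 3.88-fold higher but dim (−2.48 and −0.52). Next came 2 isoprenoid enzymes, the isomerase Idi1 at 2.74-fold (1.83 and 3.28) and the synthase Fdps at 2.50-fold (2.81 and 4.13). Stard4, a sterol carrier, was 2.21-fold higher (1.52 and 2.67), and Nsdhl, a late demethylation enzyme, 2.14-fold higher (−1.39 and −0.30). The steps differed in size along the pathway: Hmgcs1, the synthase of an early step, stood at 5.00 and 5.15. The regulator Srebf2 (−0.14 and −0.07) was also within 2-fold.

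The sterol regulatory element TCACNCCAC was searched on both strands of the same promoter windows and stood in 1.44% of 27025. Of 17 cholesterol genes with an entry it was found in 1, Hmgcs1, whose element begins 137 bases before the start. Sqle, Idi1 and Cyp51 were named without a sequence. The stretch chr13:119690156-119690275 (GRCm38.p6, plus strand, RefSeq) is shown with the element in capitals because it is the textbook site of this pathway, and its gene differed by 0.15 between the arrays.
Hmgcs1: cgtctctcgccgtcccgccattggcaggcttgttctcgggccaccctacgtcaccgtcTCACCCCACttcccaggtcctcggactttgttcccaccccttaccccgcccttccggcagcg

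Fatty acid synthesis genes were nearly level. Of 25 measured genes of fatty acid synthesis and the SREBP1 and ChREBP pathways 2 were at least 2-fold higher and none lower, with a median of 0.10. Fads2, the delta-6 desaturase, was 2.15-fold higher, at a spot with 9 bright neighbours at 0 weeks, and its other probe differed by 0.94. The core enzymes were level, with Fasn, the fatty acid synthase, at −0.43 and −0.47, Acly, which makes cytosolic acetyl-CoA, at 5.20 and 4.92, and Scd1, the stearoyl-CoA desaturase, at 7.59 and 8.08. The regulator Srebf1 differed by 0.57, pyruvate kinase Pklr by 0.10 and Thrsp, a lipogenic thyroid hormone target, by 0.11.

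Among 23 genes of glucose production and insulin response 2 were higher and 1 lower. Ppp1r3g, a subunit that directs a phosphatase to glycogen after feeding, was 4.58-fold higher (−0.57 and 1.62). Its relative Ppp1r3c was 2.18-fold lower (3.30 and 2.18), so 2 targeting subunits of the same phosphatase stood in opposite directions. The gluconeogenic enzymes Pck1 (9.48 and 9.40) and G6pc (8.08 and 7.46) were within 2-fold.

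Fatty acid oxidation genes were nearly level. Of 32 measured PPAR-alpha targets and oxidation genes 2 were higher and none lower. Fgf21, a hormone the liver secretes under nutrient stress, stood at 0.32 and 2.74, 5.37-fold higher. Pdk4, which holds back glucose oxidation, was 2.60-fold higher (1.19 and 2.57), but 20 of its 44 neighbours were bright on the 5-week array. The classic PPAR-alpha targets were high on both arrays, with Cyp4a10 at 10.22 and 10.08, Cyp4a14 at 10.58 and 10.17 and Cpt1a, the entry step of mitochondrial oxidation, at 7.13 and 7.59. Fgf21 was also 1 of 2 higher genes among 23 of the endoplasmic reticulum and integrated stress response, with the stress cytokine Gdf15 4.16-fold higher (0.54 and 2.60). The folding chaperone Hspa5 (8.02 and 7.80) and the factor Atf4 (6.83 and 6.65) were level.

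Several lipid droplet genes were higher, and genes of lipid uptake were level or lower. Of 27 measured genes of PPAR-gamma, lipid uptake and droplets 4 were higher and 2 lower. G0s2, an inhibitor of fat breakdown, stood at 4.73 and 6.13, 2.64-fold higher, and Cidec, which enlarges droplets, at 4.33 and 5.50, 2.26-fold higher with both probes alike (1.17 and 1.27). The fatty acid carrier Fabp4 was 2.10-fold and the hypoxia-induced droplet protein Hilpda 2.02-fold higher. Cidea, the droplet protein of brown fat and fatty liver, was not well above background at 0 weeks (−3.07) and stood at 0.78 at 5 weeks, at least 14.4-fold higher; it stood at 5.22 at 15 weeks. In the other direction, the lipoprotein receptor Vldlr was 4.82-fold lower (1.19 and −1.08) and Mogat2, a monoacylglycerol acyltransferase, 2.03-fold lower. The uptake receptor Cd36 (1.93 and 1.54), Pparg itself (2.56 and 2.36) and the droplet coat Plin2 (8.67 and 9.16) were within 2-fold.

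Bile acid genes gave few differences, mostly at sex-biased members. Of 25 measured genes 2 were higher and 2 lower. The higher ones were Cyp7b1, of the alternative route and given above, and Cyp7a1, the rate-limiting enzyme of the classical route, at 2.52 and 4.15, 3.1-fold higher. The lower ones, Slco1a4 and Cyp39a1, are the female-biased genes given above, so 3 of the 4 belong to a sex-biased list. Slc51b, a subunit of the basolateral bile acid exporter, was above background at 0 weeks only (−1.22 and −3.48), at least 4.66-fold lower. Cyp8b1, which sets the cholic acid share, differed by 0.63 (5.75 and 6.38).

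**Figure D4:**
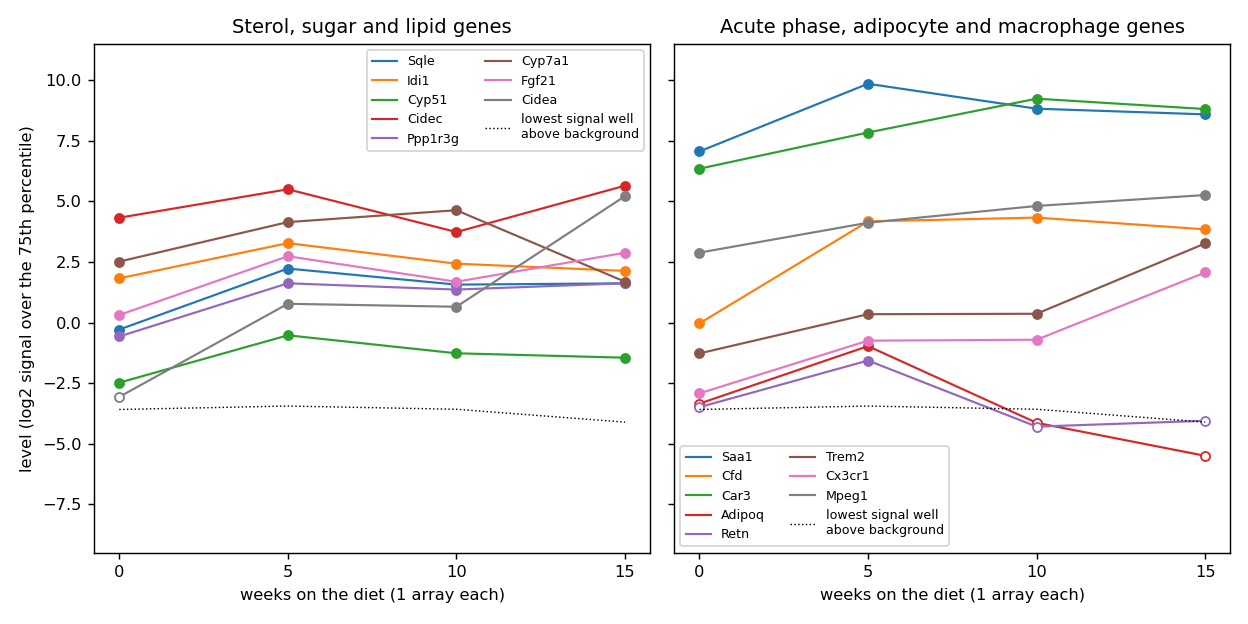
Level (log2 signal over the array's 75th percentile) of 8 sterol, sugar and lipid genes (left) and 8 acute phase, adipocyte and macrophage genes (right) on the arrays at 0, 5, 10 and 15 weeks, 1 array each; open points are not well above background and the dotted line is the lowest signal that was. Sqle goes from −0.29 to 2.23 between 0 and 5 weeks, and Adipoq is above background at 5 weeks only, at −0.97.

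Macrophage markers were higher together, by small steps. In RNA of whole liver, more cells of a type and more RNA per cell cannot be told apart, here and below. Of 21 measured macrophage and Kupffer cell markers 5 were at least 2-fold higher, against 2.31% of all measured genes, and none lower. Of the 21, 19 lay above 0, and the median was 0.88. The log2 of their summed signal, over all members with a probe, was 7.61 at 0 weeks and 8.46 at 5 weeks. Ctss, a lysosomal protease, was 2.51-fold higher (2.79 and 4.11), Lyz2, lysozyme, 2.47-fold (−0.72 and 0.58), Mpeg1, a pore-forming defence protein, 2.35-fold (2.89 and 4.12), Cd68, a lysosomal membrane protein, 2.31-fold (1.90 and 3.11) and Tyrobp, an adaptor of myeloid receptors, 2.30-fold (2.73 and 3.93). The macrophage surface receptor Adgre1 was just short of 2-fold (0.81 and 1.73). Of the markers that separate resident Kupffer cells from arrivals, Clec4f stood at 4.47 and 5.25, while Timd4 stood at −0.26 and −0.97 with 16 bright neighbours at 0 weeks.

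For macrophages that take up lipid or arrive from the blood, 10 markers were measured, 5 of them higher and none lower. Fabp5, a fatty acid carrier also made by other cells, stood at 3.50 and 6.34, 7.17-fold higher. The chemokine receptor Cx3cr1 was 4.51-fold higher from a dim start (−2.92 and −0.75), and Trem2, a receptor for lipids, 3.07-fold (−1.27 and 0.35). Clec7a, a receptor for fungal glucan, and the lectin Lgals3 were 2.27-fold and 2.21-fold higher. At 10 weeks Fabp5 stood lower than at 5 weeks (4.71), and at 15 weeks Trem2 (3.27) and Cx3cr1 (2.07) stood well above their 5-week levels, so the members did not share 1 course over the 4 arrays. Gpnmb, another such marker, was above background at 5 weeks only, with a bound of 1.16-fold.

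All 24 measured interferon-stimulated genes lay above 0, with a median of 0.86. Of these 10 were at least 2-fold higher, against 2.31% of all measured genes. They stood close to the 2-fold line, from Gbp3, a guanylate-binding protein (−0.07 and 1.43, 2.84-fold), and Ifi44 (−1.86 and −0.53, 2.52-fold) to Irf7, a driver of the response (1.52 and 2.54, 2.02-fold), and Ifit3 (1.42 and 2.42). With scaling to the array median 6 of the 24 were at least 2-fold higher, and 4 with normexp background correction. The ubiquitin-like Isg15 (4.38 and 5.54) and the RNA sensor Oas1a, whose probe also names Oas1g (2.25 and 3.49), were among the 10.

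Other leukocyte and inflammation genes gave a mixed picture. Of 15 measured chemokines and cytokines Cxcl1, which draws neutrophils, was 4.92-fold higher (−1.32 and 0.98) and Ccl2, which draws monocytes, 2.34-fold higher (−2.39 and −1.16), with Tnf and Il6 not well above background on either array. Of 7 measured neutrophil markers Ltf, S100a9 and S100a8 were 3.96-fold, 2.54-fold and 2.41-fold higher, while Ly6g (−0.21 and −0.26) and Elane (0.52 and 0.53) were level. Cd7 was the 1 of 10 T and NK cell markers that differed 2-fold (−2.97 and −1.40), and none of 4 B cell markers did. Of 25 acute phase genes 2 were higher and 2 lower. Saa1 and Saa2, near-identical acute phase apolipoproteins, stood at 7.07 and 9.86 and at 6.00 and 9.11, 6.92-fold and 8.62-fold higher. The other members did not share this: haptoglobin (Hp) was level at 10.85 and 10.66, Lcn2 differed by 0.83, and Orm3, an orosomucoid, was 3.02-fold lower.

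**Figure D5:**
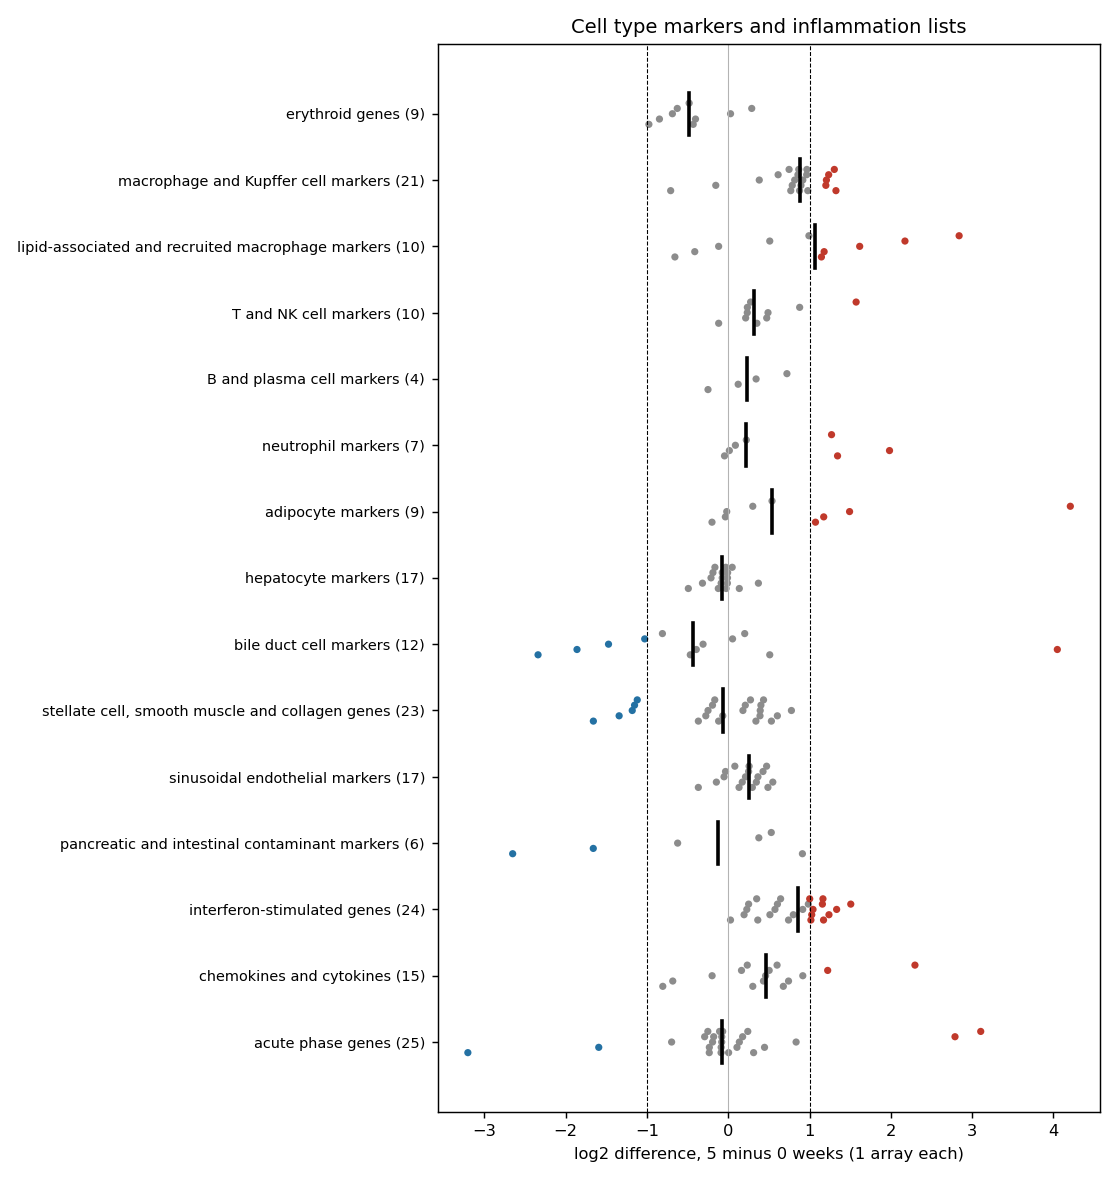
Log2 difference, 5 minus 0 weeks, of every measured member of the cell type marker lists and of 3 inflammation lists (1 point per gene, number measured in parentheses, 1 array per time point); red points are at least 2-fold higher, blue at least 2-fold lower, and the black bar is the list median. Macrophage markers and interferon-stimulated genes cluster near medians of 0.88 and 0.86, hepatocyte markers near −0.07; the Krt7 point at 4.05 among bile duct markers is a spot with 16 bright neighbours.

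Several adipocyte markers were higher at 5 weeks or above background at 5 weeks only. Of 9 measured markers 4 were at least 2-fold higher, against 2.31% of all measured genes, and none lower. Another 4 were above background at 5 weeks only, and 3 had a bound of at least 2-fold. Of all 793 genes above background at 5 weeks only, 30.1% had one. Cfd, the serine protease adipsin of adipocytes, stood at −0.03 and then 4.18, 18.5-fold higher. Car3, a carbonic anhydrase that hepatocytes also express, was 2.81-fold higher (6.35 and 7.85). Adipoq, the adipocyte hormone adiponectin, was at −3.34 and not well above background at 0 weeks and at −0.97 at 5 weeks, at least 5.18-fold higher, and Retn, resistin, likewise at −3.49 and −1.56, at least 3.80-fold higher. Both were not well above background at 10 and 15 weeks, whereas Cfd stayed at 4.34 and 3.85 there. Leptin (Lep) was not well above background on either array, and the adipocyte genes Lipe (−0.73 and −0.77) and Plin4 (2.45 and 2.43) were level. The log2 of the list's summed signal was 6.94 at 0 weeks and 8.33 at 5 weeks. Most of it came from Car3 (6.35 and 7.85), so the sum is not a measure of adipocyte RNA. The part of fat tissue or of hepatocyte expression in Cidec, Fabp4 and the other droplet genes was not tested.

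Some markers of bile ducts, smooth muscle and gut epithelium were lower at 5 weeks or above background at 0 weeks only. Of 12 measured bile duct markers 4 were at least 2-fold lower, against 1.56% of all measured genes. They were led by the keratin Krt19 at 3.01 and 0.67, 5.07-fold lower, and Anxa13, an annexin of epithelia, at −0.10 and −1.96, 3.63-fold lower. Cldn7, a tight junction protein, was 2.04-fold lower with the probe used, while its other probe differed by 1.46 the other way. Krt7, the 1 higher member, was 16.6-fold higher (−1.06 and 2.99) at a spot with 16 bright neighbours at 5 weeks. With it, the log2 of the list's summed signal was 6.37 at 0 weeks and 6.42 at 5 weeks. Of 23 measured stellate, smooth muscle and collagen genes 5 were at least 2-fold lower and 11 lay above 0, and the lower ones were contractile or filament genes: Cnn1, calponin, at 3.25 and 1.59 (3.16-fold), the myosin Myh11 (2.54-fold), Tagln (2.27-fold), the actin Acta2 (2.22-fold) and desmin (Des, 2.17-fold). The collagens Col1a1 (1.79 and 1.54) and Col3a1 (2.44 and 2.25) were level. Lox, the collagen cross-linking oxidase, appeared at 5 weeks at 2.86, but at a spot with 18 bright neighbours.

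Of 20 pancreatic and intestinal markers 12 were not well above background on either array, among them the pancreatic lipase Pnlip, the protease Cpa1 and the intestinal factor Cdx2. Of the 6 measured on both arrays 3 lay above 0. Lgals2, a galectin of gut epithelium, was 6.29-fold lower (1.43 and −1.23) and Ctrb1, chymotrypsinogen, 3.16-fold lower (1.17 and −0.50). Vil1, villin of the brush border, was above background at 0 weeks and not at 5 weeks (−2.03 and −4.32). Chosen after their values were seen, further epithelial genes were above background at 0 weeks and not at 5 weeks. They were Reg1, a secreted lectin, at least 30.7-fold lower at 5 weeks, S100g, an intestinal calcium carrier, at least 30.4-fold lower, and the mucin Muc3 at least 13.0-fold lower. Vil1 and S100g were well above background again at 15 weeks (−2.64 and −0.97). Dmbt1, an epithelial scavenger protein, stood at 6.94, 5.08, −5.43 and −6.05 at 0, 5, 10 and 15 weeks, the last 2 not well above background. Lgals2, Ctrb1, Vil1, Reg1, S100g, Muc3 and Dmbt1 each stood higher at 0 weeks than on any later array. The log2 of the list's summed signal was 7.95 at 0 weeks and 8.38 at 5 weeks, most of it from Fabp2 (7.77 and 8.30), a fatty acid carrier that hepatocytes also express. The part of such epithelial RNA in Krt19, Prom1 and the contractile genes was not tested.

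Clock output and iron genes stood apart for single members. Of 13 measured clock genes Dbp, a clock-driven transcription factor, was 4.06-fold higher (4.34 and 6.37) and Nr1d1, the repressor Rev-erb-alpha, higher by 1.58 on the log2 scale (0.33 and 1.91). Arntl, the activator Bmal1 that Nr1d1 represses, was 2.57-fold lower (1.55 and 0.19). The hour of sampling was not given in the sources used here, and its part in these 3 genes was not tested. Among 16 measured iron, hepcidin and metallothionein genes Hamp2, a hepcidin gene, was 9.22-fold lower (6.41 and 3.21), while Hamp, the hepcidin that controls iron export, stood at 6.87 and 7.31. Id1, a target of BMP signalling, was 2.80-fold higher (0.08 and 1.56), and Slc39a4, a zinc importer, 2.58-fold lower (7.18 and 5.82).

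Of the 12 genes furthest above outside the dimmest genes, most have been given. The others were Nat8, an acetyltransferase, at 2.07 and 4.56 (5.61-fold higher), Prok1, the peptide prokineticin, at −1.58 and 0.90 (5.58-fold higher), and the calpain Capn11 at 0.38 and 2.80 (5.36-fold higher). Of the 12 furthest below, Syt10, a synaptotagmin, stood at 1.12 and −2.68 (14.0-fold lower), and Cyp26a1, which degrades retinoic acid, at 0.46 and −2.44 (7.49-fold lower). Ptgds, a prostaglandin D synthase, was 7.24-fold lower (1.17 and −1.68). The remaining 4 were the sulfotransferase Gal3st2 (7.77-fold lower), the sphingolipid enzyme Degs2 (7.05-fold), Vsig2 (5.53-fold) and the keratin Krt42 (5.46-fold). All 4 were lower still at 10 weeks, at −3.82, −3.48, −1.82 and −3.51, where all but Vsig2 were not well above background.

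Set out by general knowledge of their roles, the lists gave counts as follows, with shared genes counted once within a class. Growth and sexual maturation lists held 109 measured genes, of which 15 were at least 2-fold higher and 8 lower. Diet lists held 267, with 32 higher and 10 lower. Lists that belong to both, such as drug-metabolising cytochromes and phase II enzymes, had 3 higher and 17 lower (15.9%). Cell type lists held 144, with 19 higher and 11 lower. Over all lists 66 of 588 measured genes were higher (11.2%, against 2.31% of all measured genes) and 37 lower (6.29%, against 1.56%). Most genes at least 2-fold different were on no list, and the lists hold 588 of the 17092 measured genes. As the lists were chosen with earlier results of these data known, these shares test nothing. Several genes crossed the classes: Cyp7b1 is male-biased and makes bile acids, Cyp2b10 is female-biased and answers to xenobiotics, and Cidec and Fabp4 are both droplet and adipocyte genes.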

How the data were processed

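Per the labels' protocols, 100 ng of total RNA from frozen liver was amplified and labelled with Cy3. Scans were read with Agilent Feature Extraction 10.7.3.1, per the submitters' processing notes and the file headers. The deposited scanner files hold, per the file headers, the processed signal of each spot, an intensity on a linear scale with background and spatial trend subtracted, the raw mean and background intensity, and flags for detection over background, uneven pixels and outliers. The authors' deposited value table holds the same intensity divided by the array median.

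From these, each processed signal was divided by the 75th percentile of its array and put on the log2 scale with Python 3.11.15, pandas 2.3.3 and numpy 2.4.6. Control, uneven and outlying spots were left out, spots of 1 probe averaged, and each gene given by the probe that was brightest on average over the 4 arrays. A gene well above background on 1 of both arrays got a bound: its brighter level against the higher of the dim level and the lowest signal well above background, −3.59 at 0 weeks and −3.44 at 5 weeks. Of 55681 probes, 27587 were named through RefSeq by accession, 3502 by current and 393 by older symbols; 24199 kept the name in the file. Where called genes had another measured probe, all other probes pointed the same way for 81 of 96. For 42 of the 96 all other probes also differed at least 2-fold. Over all 5627 other probes compared, the 95th percentile of the gap to the probe used was 0.77 (log2). Of the spots that were not controls, 44.9% and 44.5% were well above background, the 75th percentile signals were 208.2 and 207.7, no spot was saturated, and precision is limited by there being 1 array per time point. The step was tested before use on simulated arrays with known changes well above 2-fold and small spot noise. That test does not bear on differences near 2-fold or on variation between mice.

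Genes named are the 12 furthest above and below with an official protein-coding symbol, outside locally bright areas and not among the dimmest 25% of levels, up to 8 members at least 2-fold different in each list, and a list named whatever the values; exceptions are marked. Some items are not reported here. The members and lists were chosen with earlier results of these data known. Alternatives changed the scaling, the background correction (normexp, offset 50, in limma 3.58.1 under R 4.3.3), the background filter, the gene value, the treatment of bright spots and the fold threshold, or used the deposited table.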

Additional observations from a re-analysis of the deposited data

How the results depend on the processing

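No paired analysis was possible because each time point has 1 array, and no replicate could be left out. The counts of genes at least 2-fold higher and lower, 394 and 266, became 153 and 121 with normexp background correction, 1932 and 1523 with no background filter, 1135 and 930 at a 1.5-fold threshold and 104 and 83 at a 3-fold threshold. With the other scalings, the mean of probes, bright spots left out or the deposited table they stayed between 329 and 444 and between 229 and 307. With no filter 34742 genes were counted in place of 17092, including those not well above background. Lower female-biased genes numbered 15 of 29 with no filter in place of 6 of 17. Lower cytochromes numbered 12 of 28 with no filter and 10 of 21 at 1.5-fold in place of 6 of 21. Higher cholesterol genes numbered 2 at 3-fold in place of 6. Higher macrophage markers numbered 8 with spike-in scaling, 18 at 1.5-fold and 0 at 3-fold in place of 5. Higher interferon-stimulated genes numbered 6 with the array median and with the deposited table, 4 with normexp, 16 at 1.5-fold and 0 at 3-fold in place of 10. Of 113 list or named genes at least 2-fold different, 105 stayed so with the array median, 111 with spike-ins, 92 with normexp and 110 of 111 with bright spots left out. A stricter limit of 5 bright neighbours was chosen after seeing the data and kept 99 of 100. Cldn7 was reversed, to 0.22, with the mean of its probes. List medians were also taken relative to the median over all measured genes. This difference changed sign in at least 1 setting for the growth hormone axis, fetal, cell cycle, sex steroid, droplet and bile acid lists. It also did so for the neutrophil, stellate, pancreatic, pericentral and stress lists. The glucose list stood at the all-gene median with quantile normalization. The cause of these shifts was not tested.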

Other observations

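Some genes on no list, chosen after their values were seen, were also at least 2-fold different between 0 and 5 weeks. Serpina7, the thyroxine-binding globulin, stood at −2.31 and −0.08 and went on to 1.35 and 2.64 on the 10- and 15-week arrays. Adgrv1, an adhesion receptor, stood at −1.69 and 0.55, then 1.19 and 2.73. These genes were higher on each later array. Slc22a7, an organic anion transporter, was 3.65-fold higher (4.28 and 6.15) and Tff3, a mucosal trefoil peptide, 3.32-fold higher (4.01 and 5.74), and both stood below their 0-week level at 15 weeks, at 3.73 and 3.16. The immediate early factor Egr1 was 3.75-fold higher (1.70 and 3.61). Among lower genes, Ddit4, a stress-induced inhibitor of mTOR, was 3.92-fold lower (5.73 and 3.75), Nt5e, the nucleotidase CD73, 4.26-fold lower (1.96 and −0.13), and Acmsd, which steers tryptophan away from NAD, 3.86-fold lower (2.45 and 0.50).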
